A study of Mus musculus with 18 samples.

Results

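Small leucine-rich proteoglycans are secreted matrix proteins built around a core of leucine-rich repeats. The 10 genes described here are Dcn, Bgn, Aspn, Fmod, Lum, Prelp, Omd, Ogn, Epyc and Chad, the family members usually named for skeletal tissue. They were listed by gene symbol, with earlier results of these data known, from 49184 genes of the GENCODE annotation. For each gene the estimated counts of its transcripts were summed within a library and scaled to the effective size of that library, which gives normalised counts (CPM) that can be compared between libraries. All 10 passed the filter on low counts, although in 1 library Epyc rested on 43 and Omd on 40 estimated counts, and in the others on at least 116 and 247.

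The study asked how mouse articular cartilage responds to rupture of the anterior cruciate ligament (ACL), a model of post-traumatic osteoarthritis, and 18 libraries of its ribosomal RNA-depleted total RNA were used here. All mice were 12-week-old male C57Bl/6J animals, and the labels give the tissue as cartilage and the cells as chondrocytes. Injured libraries came from right knees that had received 1 load of 12 N, taken at day 1 (n = 3) or day 7 (n = 3) after rupture. Contralateral libraries came from the left knees of injured mice at day 1 (n = 3) and day 7 (n = 3), and naïve libraries (n = 6) came from mice that had not been loaded. The labels place all naïve libraries at day 7, so that day 1 libraries differ from them in day as well. The cartilage caps of the femoral condyles were pooled, 2 mice to a library at day 1 and 4 at day 7 by the pooling scheme, whereas the text of the series gives 4 mice for every sample and names medial caps. The 6 naïve libraries held 2 knees each from 6 mice in all, so that they shared animals. The study's scheme pooled left and right knees separately, and part of the naïve spread is therefore between knees of the same mice. Which injured and contralateral libraries, or which naïve libraries, shared mice is not given in the labels. All libraries were treated as independent, and p-values measure only the spread between these libraries, not between independent groups of mice. Estimated counts per library totalled 16074762 to 41794005.

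In cartilage these proteins sit on and between collagen fibrils. Class I members (Dcn, Bgn, Aspn) and class II members (Fmod, Lum, Prelp, Omd) bind fibrillar collagens and set the spacing and width of fibrils. Several of them also hold TGF-beta in the matrix, and fragments or free forms of Bgn and Dcn can signal through Toll-like receptors. Class III (Ogn, Epyc) and class IV (Chad) differ in their termini and in whether they carry sugar chains. The decorin and biglycan core proteins carry chondroitin or dermatan sulfate, fibromodulin and lumican carry keratan sulfate, and asporin and chondroadherin are not typical proteoglycans.

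Several of these genes lie side by side in the mouse genome (GRCm38). On chromosome 13, Ecm2, Aspn (49544443 to 49567565), Omd (49582462 to 49592822) and Ogn (49608046 to 49624501) lie in the same orientation within 119.7 kb. The row on chromosome 10 holds Dcn (97479609 to 97518143), Lum (97565128 to 97572703), Kera and Epyc (97644068 to 97682454) on the plus strand within 202.8 kb. On chromosome 1, Optc, Prelp (133910304 to 133921414, minus strand) and Fmod (134037254 to 134048277, plus strand) span 151.1 kb. Bgn is on the X chromosome (73483602 to 73495933) and Chad on chromosome 11 (94565047 to 94569127). All 10 are annotated as protein-coding.

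The 250 bases before the annotated start are shown for the 3 neighbours on chromosome 13, because Aspn and Ogn rose at day 7 and Omd between them was not called. They are also shown for Chad, which was called lower against naïve cartilage, a call lost in 14 of 28 alternatives. These sequences come from the RefSeq annotation of GRCm38.p6, which matched 8 of the 10 symbols. All are on the plus strand and are written 5′ to 3′, with matches to the 5 motifs searched in capitals. In the order shown they are chr13:49544193-49544442, chr13:49582212-49582461, chr13:49607765-49608014 and chr11:94564797-94565046.
Aspn: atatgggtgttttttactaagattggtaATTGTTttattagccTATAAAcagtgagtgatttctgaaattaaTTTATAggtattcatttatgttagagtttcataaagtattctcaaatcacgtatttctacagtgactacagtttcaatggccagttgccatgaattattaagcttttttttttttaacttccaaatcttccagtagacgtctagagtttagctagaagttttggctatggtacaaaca
Omd: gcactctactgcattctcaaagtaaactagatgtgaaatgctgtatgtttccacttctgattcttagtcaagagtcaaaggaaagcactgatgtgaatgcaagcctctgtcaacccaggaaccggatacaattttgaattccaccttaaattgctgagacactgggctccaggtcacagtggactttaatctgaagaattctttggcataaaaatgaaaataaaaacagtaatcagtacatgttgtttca
Ogn: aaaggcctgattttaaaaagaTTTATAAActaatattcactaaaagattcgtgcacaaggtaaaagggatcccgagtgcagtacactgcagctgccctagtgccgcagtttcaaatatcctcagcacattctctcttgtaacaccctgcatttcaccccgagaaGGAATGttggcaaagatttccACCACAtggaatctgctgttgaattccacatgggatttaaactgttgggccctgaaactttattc
Chad: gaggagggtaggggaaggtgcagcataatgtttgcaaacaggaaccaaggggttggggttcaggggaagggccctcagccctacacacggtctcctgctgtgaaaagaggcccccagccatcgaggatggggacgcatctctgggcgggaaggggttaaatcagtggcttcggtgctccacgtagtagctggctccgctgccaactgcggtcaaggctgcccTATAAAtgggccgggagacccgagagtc

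The motifs were searched on both strands as plain letters, TATAAA for a TATA box, TGANTCA for AP-1, AACAAT for SOX factors, TGTGGT for RUNX factors and GGAATG for TEAD factors. The Aspn window held TATAAA matches 207 and 178 bases before the start, and AACAAT 222 bases before it. The Ogn window held overlapping TATAAA matches on both strands 227 and 229 bases before the start, GGAATG 86 bases and TGTGGT 65 bases before it. The Chad window held TATAAA 28 bases before the start, the usual place of a TATA box. None of the 5 was found in the Omd window. Of all 32851 windows of this length, 12.4% held TATAAA, 6.75% TGANTCA, 9.42% AACAAT, 14.05% TGTGGT and 12.6% GGAATG. Among the 9 windows of the 8 matched members, 3 held TATAAA, 4 AACAAT, 2 GGAATG, 1 TGTGGT and 0 TGANTCA. Base composition also differed along the cluster, with 30.0% G and C in the Aspn window, 38.4% in that of Omd and 42.0% in that of Ogn, against 60.4% for Chad and a median of 52.4% over all windows. These matches are a description of the letters and say nothing of binding.

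1 library stood apart before any comparison. Day 7 contralateral replicate 1 had 42.5% of its counts in its 10 leading genes, whereas the 17 other libraries had 16.6% to 29.8%. Mitochondrial genes held 0.914% there and 3.65% to 8.68% elsewhere. Its summed level of the 10 members was 107 on the scale of transcript abundance per length (TPM), against 534 and 565 TPM in the other day 7 contralateral libraries. The results below that rest on the day 7 contralateral group are therefore also described without it. All 14 chondrocyte markers were found in every library, with Col2a1 the most abundant of them. The libraries were not cartilage alone, however. In naïve libraries the chondrocyte markers summed to 5337 CPM, whereas 8 erythroid markers summed to 34648, 8 neutrophil markers to 11942 and 9 skeletal muscle markers to 7998 CPM. Col1a1, the collagen gene of bone and fibrous tissue, was at 12425 CPM and Col2a1 at 3240 CPM.

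At day 7 after rupture, 7 of the 10 members rose in injured cartilage, by 2.06-fold (Prelp) to 18.7-fold (Aspn) against naïve cartilage. Chad was called lower (FDR = 0.0459), but that call was lost in 14 of 28 alternatives and was not made against day 7 contralateral cartilage. Omd and Epyc were not called. The test was edgeR's quasi-likelihood test over all genes. Calls needed a false discovery rate (FDR, adjusted after Benjamini and Hochberg) no higher than 0.05 together with a 1.5-fold difference. By that rule 16.6% of 21129 genes were called, 10.4% as higher and 6.11% as lower. The median log2 fold change was 1.63 over the members and -0.04 over all genes. In the 7 members that rose, every day 7 injured library lay above each of the 15 other libraries, which held for 11.9% of 21262 genes. The choice of scaling moved the whole distribution. With upper-quartile factors the median of all genes went from -0.04 to -0.21 and the share of called genes that were higher from 63.1% to 37.0%, and relative to that median the members moved by under 0.01, with Aspn at 4.26 and Chad at -0.69 under both scalings. In bulk cartilage, a larger share of cells that make these transcripts and more transcript in each cell cannot be told apart.

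**Figure D1:**
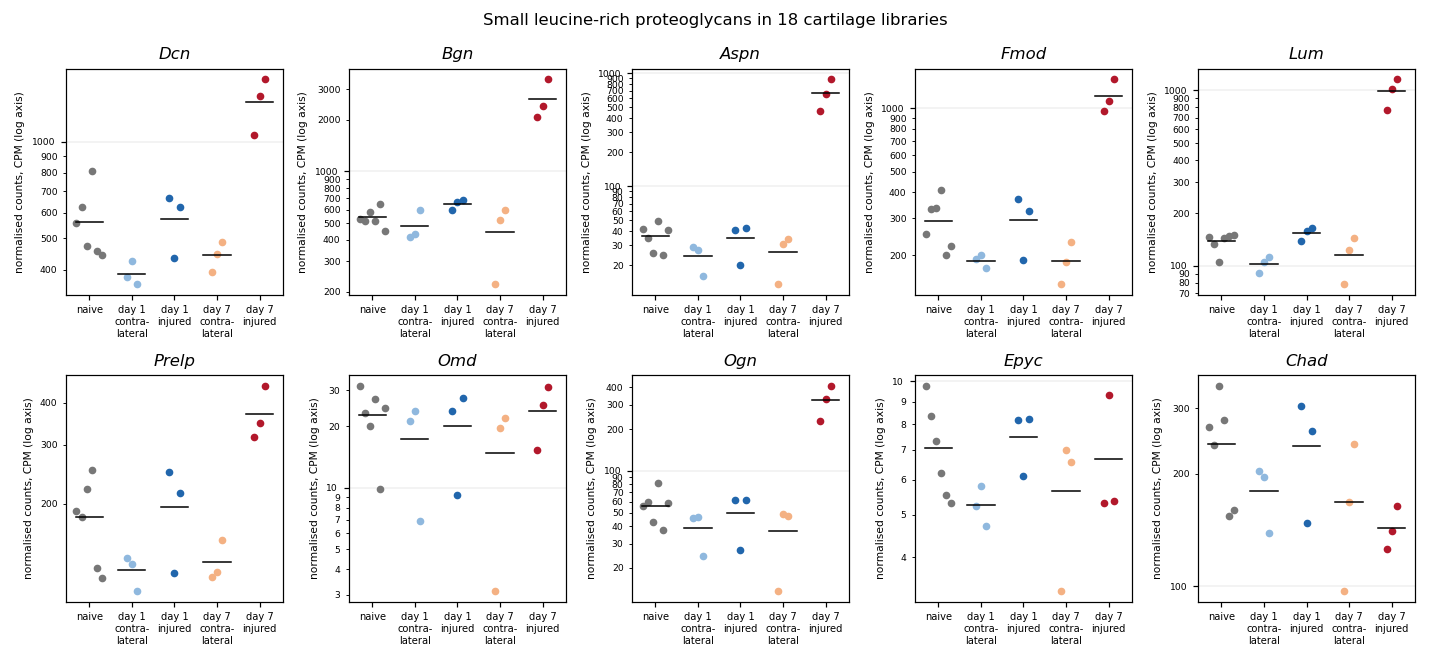
Normalised counts (CPM, log axis) of each of the 10 genes in each of the 18 libraries, by group, with a bar at the group mean. In Dcn, Bgn, Aspn, Fmod, Lum, Prelp and Ogn the 3 day 7 injured libraries sit above the 15 others, and in Omd, Epyc and Chad they overlap them.

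Among class I, Aspn rose most. Asporin has a stretch of aspartate residues in place of a sugar chain and binds both collagen and TGF-beta. It was counted at 459, 659.8 and 889 CPM in the 3 day 7 injured libraries. In naïve cartilage the lowest, median and highest values were 24.9, 38.1 and 48.9 CPM. The lowest injured library was therefore far above the highest naïve one. Day 7 contralateral libraries gave 13.6, 30.8 and 33.9 CPM, day 1 injured libraries 40.8, 20.2 and 42.7 CPM, and day 1 contralateral libraries 29.1, 27.3 and 16.2 CPM, and these 3 groups overlapped each other and the naïve group. The log2 fold change at day 7 was 4.22 ± 0.274 (SE, FDR = 4.04e-08) against naïve cartilage. Per transcript length, Aspn went from 8.57 TPM in naïve to 132.6 TPM in day 7 injured cartilage.

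Bgn encodes biglycan, which carries a pair of dermatan or chondroitin sulfate chains. Its day 7 injured libraries were at 2062, 2388 and 3455 CPM, and the naïve libraries had a lowest, median and highest value of 454, 521 and 650.3 CPM. No other library passed 685 CPM, the highest of the day 1 injured libraries (595, 669 and 685 CPM). Contralateral libraries were at 418, 431 and 599.8 CPM at day 1 and at 220.3, 524 and 596 CPM at day 7, where the low value belonged to the library that stood apart. The difference from naïve cartilage was 2.30 ± 0.157 on the log2 scale (SE, FDR = 6.83e-08), a 4.93-fold rise.

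Dcn encodes decorin, which carries a single such chain and has long been known as a regulator of fibril growth. It started from the highest level per length of the 10 genes in naïve cartilage, 180 TPM on average. In CPM the day 7 injured libraries gave 1047, 1382 and 1567, and the naïve libraries ranged from 445 over a median of 516 to 809. Day 1 injured libraries gave 667, 435 and 625 CPM and day 1 contralateral libraries 380.0, 427 and 359.5 CPM, and the day 7 contralateral libraries lay in the same range at 394, 447 and 487 CPM. The rise over naïve cartilage was smaller than that of the other class I members, with a log2 fold change of 1.26 ± 0.185 (SE, FDR = 0.000108).

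In class II, Lum and Fmod rose most. Lumican is the keratan sulfate proteoglycan known from the clear cornea, and fibromodulin is its close relative, which also binds collagen I. Lum was at 771, 1025 and 1164 CPM in day 7 injured libraries, whereas the lowest, median and highest naïve values were 106, 146 and 149 CPM. The other groups lay well below the injured one, with 139.6, 159 and 164 CPM in day 1 injured libraries, 91.1, 105 and 113 CPM in day 1 contralateral libraries and 78.4, 123 and 144 CPM in day 7 contralateral libraries. The log2 fold change was 2.86 ± 0.128 (SE, FDR = 1.81e-09), which had the smallest standard error of the 10.

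For Fmod the day 7 injured libraries gave 971, 1081 and 1383 CPM, against a lowest, median and highest naïve value of 201.2, 293 and 411 CPM. Day 1 injured libraries gave 371, 189.7 and 324 CPM, within the naïve range except for the lowest. The 3 day 1 contralateral libraries, at 191, 200.3 and 175 CPM, lay below the 6 naïve libraries, although the difference was not called. Day 7 contralateral libraries gave 145, 187 and 231 CPM. The change at day 7 against naïve cartilage was 1.99 ± 0.216 (SE, FDR = 6.14e-06) on the log2 scale.

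Prelp and Omd complete class II. Prelp encodes prolargin, whose basic start binds heparin and heparan sulfate and which is thought to tie basement membranes to collagen. It had the smallest of the 7 rises, with 317, 348 and 450.3 CPM in day 7 injured libraries and 120.3, 186 and 252 CPM as the lowest, median and highest naïve values. Day 1 injured libraries reached 248.7, 124 and 215 CPM, and contralateral libraries 138, 132 and 109 CPM at day 1 and 121, 125 and 155 CPM at day 7. The log2 fold change was 1.05 ± 0.227 (SE, FDR = 0.00287).

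Omd encodes osteomodulin, a keratan sulfate proteoglycan of bone that binds hydroxyapatite. It was at 15.3, 25.3 and 31.0 CPM in day 7 injured libraries, within the naïve range of 9.83 to 31.6 CPM (median 23.8 CPM). The difference was 0.09 on the log2 scale with a standard error of 0.406 (FDR = 0.884), and with upper-quartile factors, which lowered the median of all genes, it was -0.09. Relative to that median Omd was at 0.13 under both scalings. Omd varied widely among libraries of a group. Its day 1 contralateral libraries were at 21.2, 23.7 and 6.89 CPM and its day 1 injured libraries at 23.7, 9.19 and 27.6 CPM. The day 7 contralateral libraries gave 3.12, 19.6 and 21.9 CPM, the lowest again in the library that stood apart.

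Class III held a member that rose and one that was not called. Ogn encodes osteoglycin, also called mimecan, a keratan sulfate protein first taken from bone. Day 7 injured libraries were at 228, 331 and 411 CPM, and naïve libraries at 37.4, 57.0 and 81.4 CPM as lowest, median and highest. Day 1 injured libraries gave 61.4, 27.1 and 61.5 CPM, day 1 contralateral libraries 46.1, 46.3 and 24.6 CPM, and day 7 contralateral libraries 13.6, 48.9 and 47.4 CPM. The log2 fold change was 2.55 ± 0.277 (SE, FDR = 5.92e-06). Epyc encodes epiphycan, a dermatan sulfate proteoglycan of epiphyseal and growth plate cartilage. It was the least abundant member, between 3.35 and 9.78 CPM over the 18 libraries. Its day 7 injured libraries gave 5.31, 9.31 and 5.37 CPM, and the log2 difference from naïve cartilage was -0.07 with a standard error of 0.217 (FDR = 0.829).

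Chad went the other way. Chondroadherin carries no sugar chain, binds collagen II and integrin alpha2beta1 on chondrocytes, and is found mainly in cartilage. Day 7 injured libraries were at 126, 141 and 164 CPM, and naïve libraries had a lowest, median and highest value of 154, 253 and 345 CPM, so that the groups overlapped. Day 1 injured libraries gave 303, 148 and 261 CPM, day 1 contralateral libraries 204, 196 and 139 CPM, and day 7 contralateral libraries 96.9, 168 and 240.1 CPM. The log2 fold change against naïve cartilage was -0.73 ± 0.259 (SE) and only just passed, at an FDR of 0.0459. That call was lost in 14 of 28 alternatives, at values from -0.90 to -0.60 over all of them. They included limma-voom and the fit of all 18 libraries, and leaving out any 1 of naïve replicates 1 to 4, day 1 contralateral replicates 1 and 2, day 1 injured replicate 3 and the 3 day 7 injured libraries. Against the day 7 contralateral group the difference was -0.23 ± 0.329 (SE, FDR = 0.686), and -0.48 ± 0.320 (SE, FDR = 0.350) without day 7 contralateral replicate 1, neither called.

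The order among the members was read on the scale that allows genes to be compared, TPM, which divides by transcript length. In naïve cartilage the order of mean TPM was Dcn (180), Bgn (136), Chad (81.6), Fmod (50.1), Lum (30.8), Prelp (26.9), Ogn (11.7), Aspn (8.57), Omd (7.70) and Epyc (2.31). In day 7 injured cartilage it was Bgn (574), Dcn (354), Lum (182), Fmod (162), Aspn (132.6), Ogn (57.0), Prelp (45.2), Chad (39.9), Omd (6.89) and Epyc (1.77). Chad held rank 3 in each of the 15 other libraries and rank 8 in each of the 3 day 7 injured ones. A rank also falls when other genes rise, and Lum, Fmod, Prelp, Ogn and Aspn, all called higher, passed Chad. In CPM the day 7 injured and naïve libraries overlapped for Chad. Neighbouring ranks were not always separate, and Bgn took rank 1 from Dcn in 1 naïve, 1 day 1 contralateral and 1 day 1 injured library as well as in the 3 day 7 injured ones.

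**Figure D2:**
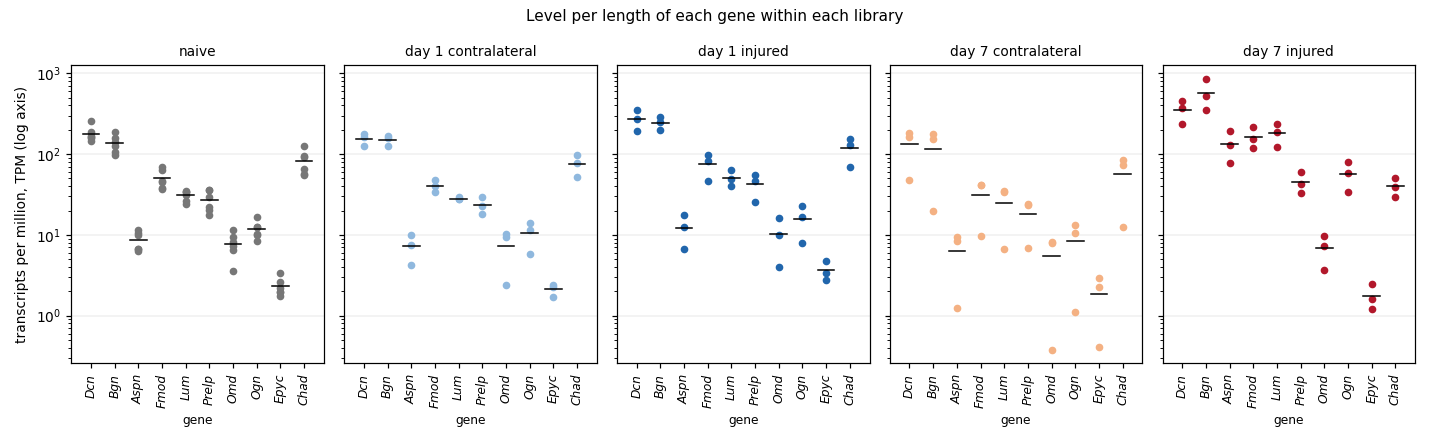
Level of each of the 10 genes per transcript length (TPM, log axis) in each library, by group, with a bar at the group mean. Chad is the third highest in the 4 other groups and the eighth in day 7 injured cartilage, where Aspn is the fifth.

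As a share of the summed TPM of the 10 genes, Aspn went from 1.62 ± 0.438% (SD, n = 6) in naïve to 8.37 ± 0.649% (SD, n = 3) in day 7 injured libraries, and Bgn from 25.6 ± 5.82% to 36.3 ± 2.88%. Over the same groups Chad went from 15.02 ± 3.49% to 2.64 ± 0.314% and Dcn from 33.6 ± 4.23% to 23.1 ± 1.59%. The ranges of day 7 injured and naïve libraries did not overlap for Aspn, Chad and Dcn, whereas for Bgn the injured range of 34.3% to 39.6% met the naïve one of 19.2% to 36.2%. Shares of 1 sum depend on each other, and that of Dcn fell although Dcn itself rose 2.40-fold. How often shares within other sets of genes separated these groups was not counted. The summed level itself was 535 ± 88.3 TPM (SD, n = 6) in naïve and 1556 ± 581 TPM (SD, n = 3) in day 7 injured cartilage, a ratio of 2.91 that was 3.67 for CPM (2079 against 7638). Day 1 injured libraries had a sum of 846 ± 211 TPM (SD, n = 3) but of 2220 ± 375 CPM, close to the naïve mean of 2079 ± 313 CPM. The scales thus gave different pictures at day 1. TPM values are shares of all transcripts of a library and move with its other transcripts.

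The contralateral and day 1 groups gave other references for the same 3 day 7 injured libraries, so that these comparisons are not independent of each other. Against day 7 contralateral cartilage the same 7 members were called higher and none lower, where 9.33% of genes were called higher and 3.23% lower. Of the called genes 74.3% were higher, and 55.2% with upper-quartile factors. The log2 fold changes were 4.67 for Aspn, 3.13 for Ogn, 3.10 for Lum, 2.61 for Fmod, 2.56 for Bgn, 1.59 for Dcn and 1.47 for Prelp. Without the library that stood apart they were 4.39, 2.77, 2.91, 2.48, 2.26, 1.53 and 1.43, and all 7 calls held. Omd (0.66) and Epyc (0.21) were not called, and without that library they were at 0.23 and -0.01. Against day 1 injured cartilage the same 7 were called, with 9.04% of genes called higher and 6.38% lower, at log2 fold changes from 0.94 (Prelp) to 4.30 (Aspn). The higher share of called genes was 58.6% there and 33.3% with upper-quartile factors. Prelp was the least firm of these (FDR = 0.0210), and without day 1 injured replicate 2 its log2 fold change was 0.69 and the call was lost. The same happened without day 7 injured replicate 3, at 0.79.

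**Figure D3:**
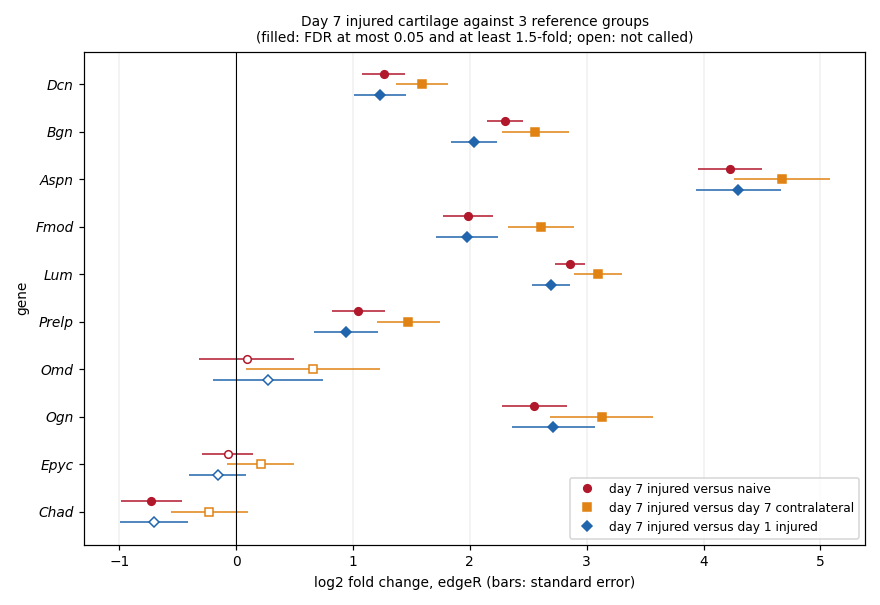
Log2 fold change of each gene in day 7 injured cartilage against naïve, day 7 contralateral and day 1 injured cartilage (edgeR, bars are standard errors). Filled symbols were called, as for Aspn at 4.22, 4.67 and 4.30, and open symbols, which include all 3 for Omd and Epyc, were not.

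The difference between injured and contralateral cartilage was also compared between the time points in 1 contrast. It was larger at day 7 than at day 1 for 5 of the 10 members, where 3.53% of genes were called higher (93.5% of all called, and 82.3% with upper-quartile factors). Without day 7 contralateral replicate 1 the same number of members was called, and 4.09% of genes were called higher. The log2 differences of the injury effect were 4.15 ± 0.522 for Aspn (SE, FDR = 0.000150), 2.77 ± 0.588 for Ogn, 2.52 ± 0.273 for Lum, 2.13 ± 0.389 for Bgn and 1.97 ± 0.377 for Fmod. For Dcn the difference was 1.02 ± 0.306 (SE, FDR = 0.0743) and for Prelp 0.84 ± 0.373 (SE, FDR = 0.268), neither called. Dcn was called in this contrast by DESeq2, and by edgeR without naïve replicate 4 or without day 7 injured replicate 1.

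At day 1 no member was called, and hardly any gene was. Between day 1 injured and naïve libraries edgeR called 0% of genes, and 0 of the 10 members had an unadjusted p-value under 0.05, against 959 genes (4.54%). DESeq2 called 15 genes, none a member, and limma-voom called 0. Between day 1 injured and day 1 contralateral libraries edgeR again called 0%, as did DESeq2 and limma-voom. There all 10 members had a higher mean in injured libraries, by 0.22 (Omd) to 0.64 (Fmod) on the log2 scale with a median of 0.51, against a median of 0.00 over all genes. Unadjusted p-values were under 0.05 for 5 of the 10 (Lum, Dcn, Fmod, Prelp and Bgn), against 1383 genes (6.55%). The lowest FDR of any gene was 0.755. Other gene lists described below also shifted in this comparison. Their medians ran from -0.37 (erythroid markers) to 0.72 (tendon and ligament markers), with the collagen list at 0.62. The part of tissue make-up in the members' values was not tested.

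The contralateral knees came from mice with an injured joint, and their comparison with naïve cartilage shows how far the references differed. In day 1 contralateral libraries all 10 members had a lower mean than in naïve libraries, by a median of -0.47 on the log2 scale (from -0.63 for Fmod to -0.16 for Bgn), and 0% of genes were called. Unadjusted p-values were under 0.05 for 4 members (Fmod, Dcn, Lum and Prelp) and for 554 genes (2.62%), while DESeq2 called 2 genes, neither a member. The medians of the other lists ran from -0.62 (tendon and ligament markers) to 0.07 (erythroid markers), with the collagen list at -0.45. This comparison and the one of day 1 injured with day 1 contralateral cartilage share the 3 contralateral libraries, and the positive values of the one and the negative values of the other are not separate evidence. The median over the members between day 1 injured and naïve libraries was 0.02. Day 7 contralateral libraries likewise gave a median of -0.46 against naïve libraries, with 0% of genes called, 1 member (Fmod) and 3220 genes (15.1%) at an unadjusted p-value under 0.05, and 8 genes called by DESeq2, none a member. Without day 7 contralateral replicate 1 the members' median was -0.19, from -0.49 (Fmod) to 0.05 (Bgn), with 0 genes called by edgeR and 1201 at an unadjusted p-value under 0.05, none of them a member. Between the contralateral groups of day 7 and day 1, 0.0188% of genes were called, 4 in all and no member, and the members' median was 0.04. DESeq2 called 69 genes higher and 12 lower there, again without a member. Without replicate 1 edgeR called 0 genes, 1374 had an unadjusted p-value under 0.05, 1 of them a member, and the members' median was 0.26.

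Log2 levels across the 18 libraries were compared between members. Those of the 7 that rose followed each other, with Pearson's r from 0.80 (Bgn with Prelp) to 0.98 (Lum with Aspn), and for Omd, Epyc and Chad r lay between 0.65 and 0.70. Between these sets r ran from -0.28 (Lum with Chad) to 0.62 (Ogn with Omd). Leaving out day 7 contralateral replicate 1 gave a range from -0.48 (Lum with Chad) to 0.53 (Prelp with Omd) between them. Without day 7 contralateral replicate 1, the lowest library for Omd, Epyc and Chad alike, r among those 3 was 0.51 to 0.53, no higher than the 0.53 of Prelp with Omd, while the 7 kept values from 0.79 to 0.99. These values describe 18 libraries that share groups and in part mice, and the group difference at day 7 enters each of them. Among 9888 genes with a mean of at least 10 CPM, the closest to Aspn were Angptl1 (r = 0.99), Fat4 and Pdgfrl, and the closest to Lum were Col12a1 (r = 0.99), Igsf10 and Plod2. Fmod was closest to Kera (r = 0.98) and Dcn to Cdon (r = 0.98), Fmod and Kera. Ogn had its neighbour Aspn (r = 0.97) as the second of its list after Zfp260, Bgn had Rbms3 (r = 0.99) first and Prelp had Cped1 (r = 0.97). The nearest genes of the remaining members were less close, with Cd55 for Omd (r = 0.94), Xirp2 for Chad (r = 0.90) and Slc16a7 for Epyc (r = 0.85, among 9889 genes). All nearest genes were ranked over the 18 libraries, and not again without day 7 contralateral replicate 1.

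In each of the 3 gene rows 1 gene was not called while its neighbours rose. On chromosome 13, Ecm2 (1.19 ± 0.347, SE), Aspn and Ogn rose against naïve cartilage and Omd between Aspn and Ogn was not called. On chromosome 10, Dcn, Lum and Kera (2.32 ± 0.318, SE) rose and Epyc at the end of the row was not called. On chromosome 1, Prelp and Fmod rose and Optc, at 0.407 ± 0.111 CPM (SD, n = 6) in naïve libraries, was not called. Aspn, Omd and Ogn lie within Cenpp, which is transcribed from the opposite strand, and Chad lies within Acsf2 in the same way. The strand setting of the counting is not given in the sources used here. Cenpp was at 8.08 CPM in naïve and 6.60 CPM in day 7 injured cartilage and Acsf2 at 17.9 and 22.3 CPM. Annotated exons overlap those of an antisense gene by 350 bases in Prelp (Gm15851) and by 1041 bases in Epyc (Gm10754), and by 7 bases with Cenpp in Aspn.

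Decorin transcripts showed a further difference, which was noticed in these data and not looked for. Dcn-201 and Dcn-202 share 7 of 8 exons and the start codon in exon 2, and differ in their non-coding first exon, which lies at 97479609 to 97479789 in Dcn-201 and at 97482367 to 97482547 in Dcn-202, both of 181 bases, with starts 2758 bases apart. Of all Dcn counts in the 18 libraries, Dcn-201 held 81.7% and Dcn-202 17.9%. In day 7 injured libraries Dcn-202 held 5.80%, 6.36% and 5.90% of the counts of both. In naïve libraries its share was 18.01%, 22.3% and 28.4% as lowest, median and highest. The day 1 injured libraries gave 22.8%, 28.4% and 18.2%, the day 1 contralateral libraries 23.1%, 23.6% and 31.4%, and the day 7 contralateral libraries 16.4%, 19.96% and 16.9%. All 15 other libraries thus lay above the 3 injured ones at day 7. How often transcript shares of other genes separated these libraries in this way was not counted.

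The mean shares were 6.02 ± 0.299% (SD, n = 3) in day 7 injured and 22.4 ± 3.78% (SD, n = 6) in naïve cartilage. They were 17.7 ± 1.95% in day 7 contralateral and 23.1 ± 5.11% in day 1 injured cartilage (SD, n = 3 each). No test of the share is given, since its separation was noticed first. The fits below are of transcripts picked for that separation, and 1 called beside 1 not called is no test of the share. Dcn-201 held 81.7% of Dcn counts, and its call is not separate from that of the gene. Dcn-201 rose from 434 ± 108 to 1248 ± 246 CPM and was called in a fit of single transcripts, with a log2 fold change of 1.59 ± 0.212 (SE, FDR = 0.000352) against naïve cartilage, where 7.27% of transcripts were called. Dcn-202 was at 125 ± 37.4 CPM in naïve and 80.1 ± 17.1 CPM in day 7 injured cartilage, a log2 difference of -0.58 ± 0.233 (SE, FDR = 0.145) that was not called. Against day 7 contralateral cartilage (3.18% of transcripts called) Dcn-201 was higher by 1.84 and Dcn-202 differed by 0.09, and against day 1 injured cartilage (5.88% called) the values were 1.55 and -0.63, with Dcn-201 called in both and Dcn-202 in neither. Without day 7 contralateral replicate 1 the values against that group were 1.74 (called) and -0.07 (not called). The split between the transcripts rests on reads over the first exons, and the uncertainty of Kallisto's assignment does not enter these errors.

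**Figure D4:**
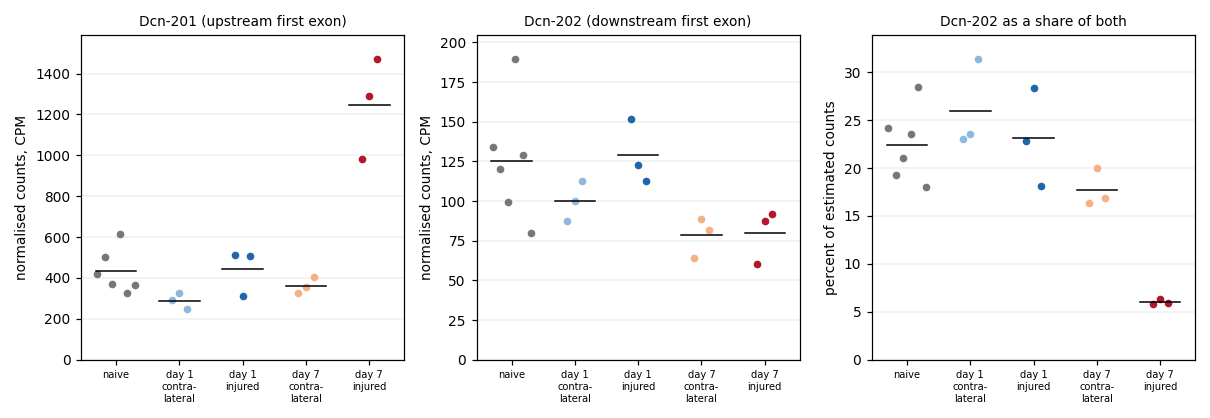
Normalised counts (CPM) of the decorin transcripts Dcn-201 and Dcn-202, which differ in their first exon, and Dcn-202 as a percentage of the estimated counts of both, in each library by group, with a bar at the group mean. The share is between 5.80% and 6.36% in day 7 injured libraries and between 16.4% and 31.4% in the 15 others.

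Of 9 other genes of the family, 8 passed the filter and 3 rose at day 7 against naïve cartilage. Kera, which encodes the corneal proteoglycan keratocan, rose from 10.4 ± 5.19 CPM (SD, n = 6) to 51.7 ± 10.2 CPM (SD, n = 3). Tsku, which encodes the secreted signalling modulator tsukushi, rose from 13.01 ± 3.41 to 38.3 ± 7.83 CPM (log2 fold change 1.57 ± 0.235, SE), and Ecm2 from 36.2 ± 11.2 to 81.4 ± 16.1 CPM. Podn, Podnl1, Nyx, Optc and Chadl were not called, and Nepn was at 0.200 ± 0.128 CPM in naïve libraries and was not tested. Podnl1 had an FDR of 0.0158 but a log2 fold change of 0.51, under the call limit. The median over the 8 was 0.50, against -0.04 over all genes.

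Of the enzymes that build the sugar chains, those of the 2 main kinds were counted separately, with no test between them. Of 10 enzymes of the linker and of dermatan sulfate, 7 were called higher and none lower, with a median log2 fold change of 0.69. Dsel and Dse, the epimerases that turn chondroitin into dermatan sulfate, rose by 2.07 ± 0.127 and 0.98 ± 0.170 (SE), and Chst14, the sulfotransferase that follows them, by 1.16 ± 0.172. Xylt1 and Xylt2, which attach the first sugar to the core protein, rose by 0.72 ± 0.0855 and 0.79 ± 0.135. The linker enzymes B3galt6 (-0.04), Fam20b (0.16) and B3gat3 (0.26) had the smallest differences and were not called. Of 7 enzymes of keratan sulfate 2 were called higher, Chst2 (0.88) and B4galt1 (0.65), with a median of 0.23, and B3gnt2 (-0.04), Chst1 (0.17) and B4galt4 (0.23) had the smallest differences. Against day 7 contralateral cartilage none of the 7 was called, with Chst2 at 0.47 and B4galt1 at 0.41, and without replicate 1 of that group both were, at 0.73 and 0.62. The linker and dermatan sulfate enzymes gave 6 of 10 against that group, with or without the replicate. Tpst1, which sulfates tyrosines of the kind found in fibromodulin, rose by 1.34 ± 0.102 (SE), and Tpst2 was at -0.69 (FDR = 0.158). With upper-quartile factors 4 of the 10 linker and dermatan sulfate enzymes and 1 of the 7 keratan sulfate enzymes were called. That scaling lowered the median of all genes from -0.04 to -0.21, and 1608 of 21129 genes were called higher, against 2207 in the main fit.

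Nearly all of the collagen genes listed here for their binding to these proteins rose. Of 11 fibril and microfibril collagen genes 10 were called higher against naïve cartilage and none lower, with a median log2 fold change of 2.99. Col3a1 rose by 3.65 ± 0.266, Col5a1 by 3.25 ± 0.151, Col12a1 by 3.19 ± 0.148, Col6a2 by 3.08 ± 0.164 and Col6a1 by 3.04 ± 0.166 (SE). Col2a1, the main collagen of hyaline cartilage, was not called at 0.25 ± 0.196 (SE, FDR = 0.358), and the smallest called changes were 1.91 for Col1a2 and 2.05 for Col1a1. Against day 7 contralateral cartilage 8 of the 11 were called, and Col1a1 (0.77) and Col1a2 (0.75) were not. These counts rested on replicate 1 of that group, without which 10 of the 11 were called, Col1a1 at 1.48 ± 0.342 (SE, FDR = 0.00609) and Col1a2 at 1.33 ± 0.314 (SE, FDR = 0.00708).

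Of 15 growth factors and receptors known to bind members of the family, 6 rose and none fell, with a median of 0.51. Those that rose most were Tgfb3 (1.86 ± 0.144, SE), Egfr (1.60 ± 0.132), Ccn4 (1.40 ± 0.184), Tgfb2 (1.35 ± 0.162) and Itgb1 (1.01 ± 0.0894), besides 1 receptor of smaller change. Tgfb1 (-0.07), Igf1r (-0.06) and the Toll-like receptor gene Tlr4 (0.08) had the smallest differences and were not called. Of 9 proteinases that process or cleave these proteins, 7 rose. Mmp2 rose by 3.29 ± 0.153, Mmp14 by 2.82 ± 0.150, Adamts4 by 2.55 ± 0.467, Htra1 by 2.33 ± 0.164 and Bmp1, which removes the propeptide of biglycan, by 1.58 ± 0.114 (SE). The smallest differences were those of Adamts5, at 0.06 (FDR = 0.734) and not called, Mmp13, which rose by 0.88 ± 0.222 (SE), and Tll1, which rose from 2.95 ± 0.867 to 6.20 ± 0.260 CPM (SD). Against day 7 contralateral cartilage 7 of the 9 were again called, but Mmp13 was not, at 0.12 (FDR = 0.808). Without replicate 1 of that group 6 of the 9 were called, and Mmp13 was at 0.03 (FDR = 0.971). Mmp3, named after its values were seen, was called there at 3.21 ± 1.03 (SE, FDR = 0.0386), though not without replicate 1 of that group (FDR = 0.0794) nor against naïve cartilage (FDR = 0.0779). These lists were chosen by hand, and their shares of called genes stand beside the 10.4% of all genes called higher.

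Markers of other tissues that a dissected cap could hold moved in the same libraries. The 4 tendon and ligament markers summed to 233 ± 93.6 CPM (SD, n = 6) in naïve and 742 ± 82.7 CPM (SD, n = 3) in day 7 injured libraries, with Thbs4 the most abundant in every library. All 4 rose, Tnmd by 3.68, Scx by 2.94, Thbs4 by 1.52 and Mkx by 1.25 on the log2 scale. The 10 markers of synovial and connective tissue fibroblasts went from 405 ± 55.8 to 1062 ± 94.3 CPM, and 7 of them rose, among them Dpt (2.35), Thy1 (1.91) and Pdgfra (1.32). Pdgfra was the most abundant in naïve libraries and Dpt or Pdgfra in day 7 injured ones. For both lists the 3 day 7 injured libraries lay above every other library. Several members are themselves expressed in fibroblasts and tendon, and the part of such tissue in the rise of the members was not tested.

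The chondrocyte markers summed to 5337 ± 1325 CPM in naïve and 7436 ± 439 CPM in day 7 injured libraries, with Sox9 (1.36), Acan (1.57) and Comp (1.39) higher and Cytl1 (-2.31) lower of 14. Osteoblast and osteocyte markers were at 765 ± 128 and 844 ± 46.9 CPM, with Ibsp (0.69) higher and Sost (-0.95) and Mepe (-0.61) lower of 9. Blood and muscle were also represented. Erythroid markers, led by Hbb-bs, went from 34648 ± 3950 to 22617 ± 5471 CPM, with 5 of 8 lower and none higher. Neutrophil markers went from 11942 ± 1924 to 8860 ± 1554 CPM, with 2 of 8 lower (S100a8 and S100a9), and skeletal muscle markers from 7998 ± 3175 to 4654 ± 1615 CPM, with 1 of 9 lower (Myh2). Macrophage markers, led by Lyz2, were at 2577 ± 297 and 2544 ± 278 CPM and none of 8 was called. None of the markers on these lists was at 0 in any library, and their part in the members' values was not tested.

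**Figure D5:**
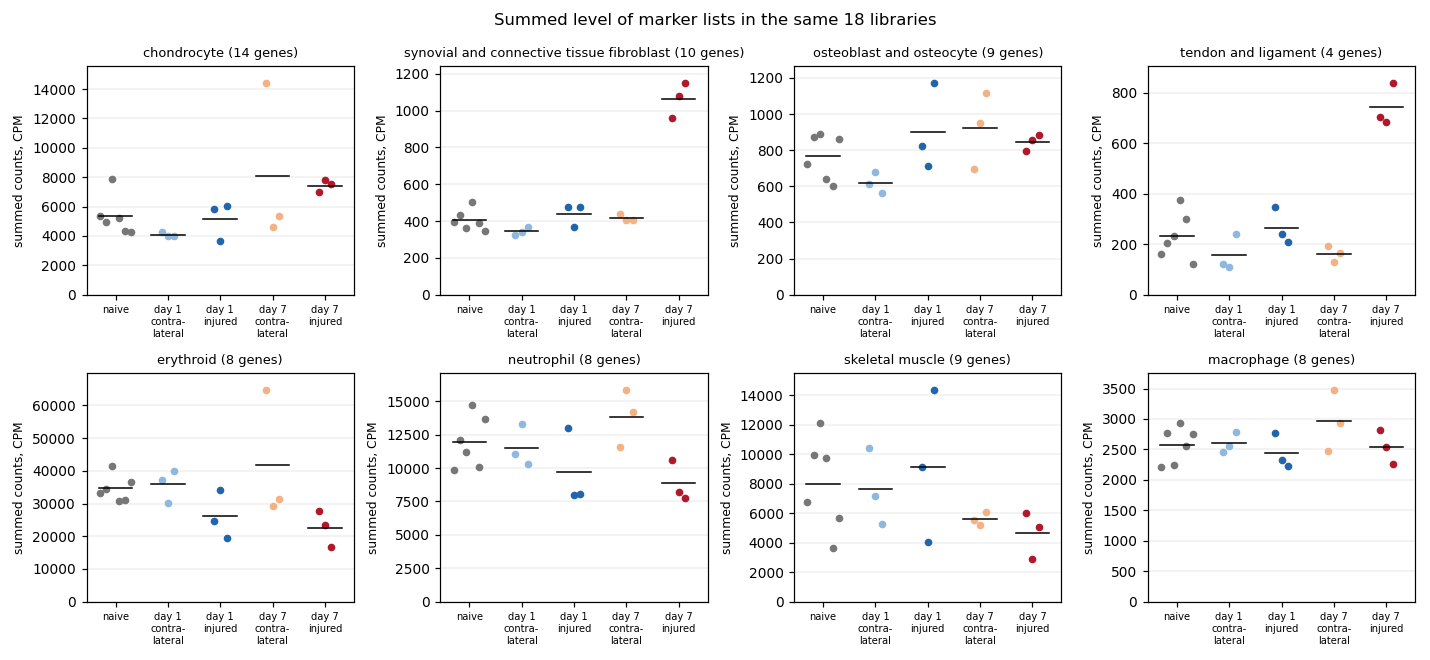
Summed normalised counts (CPM) of 8 lists of marker genes in each library by group, with a bar at the group mean. The tendon and ligament list (mean 742 CPM) and the synovial and connective tissue fibroblast list (mean 1062 CPM) are higher in the 3 day 7 injured libraries than in every other library, and the chondrocyte and erythroid lists reach 14392 and 64660 CPM in day 7 contralateral replicate 1.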

How the data were processed

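Total RNA of pooled mouse condylar cartilage was depleted of ribosomal RNA, sequenced, trimmed with Trimmomatic and quantified by the authors with Kallisto against mouse transcripts. The deposited tables hold estimated counts and TPM (transcript abundance scaled to length and to the library) for 137436 transcripts. The build that the study's methods name is GRCm38, whereas the submitters' processing notes list GRCh38; 98.3% of identifiers (135107) matched mouse GENCODE M21, and the 2329 others held 0.667% to 3.90% of counts. The study left out 1 library of low mapping that it does not name. Its pooling scheme gives 18 libraries and 18 were analysed here, so that the left-out library may be among them.

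Estimated counts were summed per gene, rounded to whole numbers, and tested with edgeR 4.0.16 (R 4.3.3, TMM factors, quasi-likelihood test, Benjamini-Hochberg FDR). The study's limma model allowed for libraries from the same mouse pool, which was not done here because the labels do not name the pools. Comparisons without the day 7 contralateral group used the 15 other libraries. DESeq2 1.42.0 and limma 3.58.1 were alternatives, as were other scalings and filters and leaving out each library. The procedure was also run on simulated counts of independent libraries with 1 fixed spread, without shared mice or a library that stood apart. That run therefore says nothing of these features of the data. Correlations used log2(CPM + 1).

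The 10 members and all lists were chosen with earlier results of these data known. All members and other family genes were named. From each other list except the marker lists, up to 5 called genes of largest and 3 of smallest change in day 7 injured against naïve cartilage were named. The marker lists did not follow this rule, and not all of their called genes were named. The Dcn transcripts, and the repeat of all results against day 7 contralateral cartilage without its replicate 1, were chosen after values were seen. Library totals were 16074762 to 41794005 counts.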

Additional observations from a re-analysis of the deposited data

Results flagged for a closer look

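Among the 6 naïve libraries 1 stood apart in Lum, at 106.001 CPM in naïve replicate 3, with a gap to the next library of 0.637 of the whole range, past the 95% limit of Dixon's test for 6 samples. The 10 members were tested in this way in the naïve group, where chance marks about 1 in 20. The injury effect, injured minus contralateral, was larger at day 7 than at day 1 for 5 members in edgeR's contrast of both, by 2.13 (Bgn), 1.97 (Fmod), 2.52 (Lum), 2.77 (Ogn) and 4.15 (Aspn) on the log2 scale. Without day 7 contralateral replicate 1 the values were 1.83, 1.84, 2.33, 2.41 and 3.88, and all 5 were still called.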

How the results depend on the processing

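Of 27 called results of single members, 24 kept their direction and their call under all alternatives run, and none reversed. Chad in day 7 injured against naïve cartilage (-0.73) was lost in 14 of 28 alternatives, with values from -0.90 to -0.60. Prelp against day 1 injured cartilage was lost at an FDR of 0.01 and without day 1 injured replicate 2 or day 7 injured replicate 3, and Ogn in the contrast of the injury effects at an FDR of 0.01. Of 63 results that were not called, 2 gained a call, Chad against day 1 injured cartilage with upper-quartile factors (-0.89, although relative to the median of all genes it was at -0.70 under both scalings) or without day 1 injured replicate 2 (-0.97), and Dcn in the contrast of the injury effects with DESeq2 (1.00), without naïve replicate 4 (1.02) or without day 7 injured replicate 1 (1.17). The number of members called ranged from 7 to 8 against naïve, from 6 to 8 against day 1 injured and from 4 to 6 in the contrast, and was 7 throughout against day 7 contralateral cartilage. The ratio of summed levels ranged from 2.34, without day 7 injured replicate 3, to 3.67 in CPM. Tpst2 joined Tpst1 among the called enzymes without naïve replicate 6. The cause of these changes was not tested. No paired analysis was possible because nothing in the labels links a given injured library to the contralateral library of the same mice, although the study modelled shared mouse pools. The lowest counts of a member, 43 for Epyc and 40 for Omd, were both in day 7 contralateral replicate 1, and in the other libraries the lowest were 116 and 247.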

Other observations

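In naïve replicate 5, day 1 contralateral replicate 3 and day 1 injured replicate 2, Omd was at 9.83, 6.89 and 9.19 CPM, the lowest of each group. Fmod, Ogn, Aspn and Chad were also the lowest of each group there, with Aspn at 24.9, 16.2 and 20.2 CPM. The Dcn-202 share was 28.4%, 31.4% and 28.4% in these libraries, the highest of each group. Bgn was the most abundant member per length in the same 3 libraries, whereas Dcn was in the other libraries outside the day 7 injured group. Bgn held 36.2%, 38.0% and 37.9% of the members' summed TPM in them, a share that depends on the lower members as well. These libraries were noticed after their values were seen, belong to different groups and were not tested.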
